A study of Homo sapiens with 30 samples.

Results

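The earliest response to bone morphogenetic protein 4 (BMP4), after 30 min, was measured on 5 two-colour oligonucleotide arrays, 1 for each of ZR-75-30, SK-BR-3, HCC1419, HCC1954 and MDA-MB-361, which are established lines derived from human breast tumours. They are the arrays whose labels give a time point of 30 min, and they make up 5 of the 30 arrays of the series. Every array set cells of 1 line that received recombinant human BMP4 (labelled with Cy5) against cells of the same line that received vehicle for the same time (labelled with Cy3). The other arrays hold the same comparison in the same lines at 1 h (5 arrays) and at 3, 6, 12 and 24 h (20 arrays). Per the labels, cells were treated in triplicate on multiwell plates and the collected cells were pooled, so each array is 1 pooled experiment and the replicates of a time point are the cell lines. All values below are log2 ratios of BMP4 over vehicle, where 0 is no difference and 1 is a doubling, and a whole culture's RNA cannot tell a change in every cell from a change in some of them.

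BMP4 is a secreted ligand that binds a pair of type I and type II serine/threonine kinase receptors. The activated type I receptor phosphorylates SMAD1, SMAD5 and SMAD9, which join SMAD4, enter the nucleus and raise the transcription of direct targets such as the ID genes, inhibitors of basic helix-loop-helix transcription factors, and of SMAD6 and SMAD7, which dampen the pathway. Transcripts of such targets, and of the immediate early genes that many stimuli switch on without new protein synthesis, can build up within an hour, so the earliest time point asks which transcripts had already moved. All 7 luminal epithelial markers looked at (KRT8, KRT18, KRT19, TACSTD1, which codes for EPCAM, CDH1, ERBB2 and GATA3) passed the scanner software's background test in both channels of each of the 5 arrays, except CDH1 on 4. Of the fibroblast, immune and endothelial markers, COL3A1 and PTPRC were above background on none, COL1A2 and PECAM1 on 1 array each, and VIM, COL1A1, CD3E, CD68 and VWF on 4 or 5.

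The arrays differed in how widely their ratios spread. The interquartile range over all probes was 0.0612 in HCC1419 against 0.231 in SK-BR-3, 0.204 in ZR-75-30, 0.182 in MDA-MB-361 and 0.178 in HCC1954. On the HCC1419 array most probes thus lay closer to 0 than on the others. In the vehicle channel 58.9% to 68.5% of the probes were well above background, and in the BMP4 channel 57.0% to 68.7%, and both lowest values came from SK-BR-3. Each of the 5 arrays lay on a slide of its own. In 4 lines the slide also carried the 1 h array, whereas in ZR-75-30 it carried 2 later arrays of other times.

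**Figure D1:**
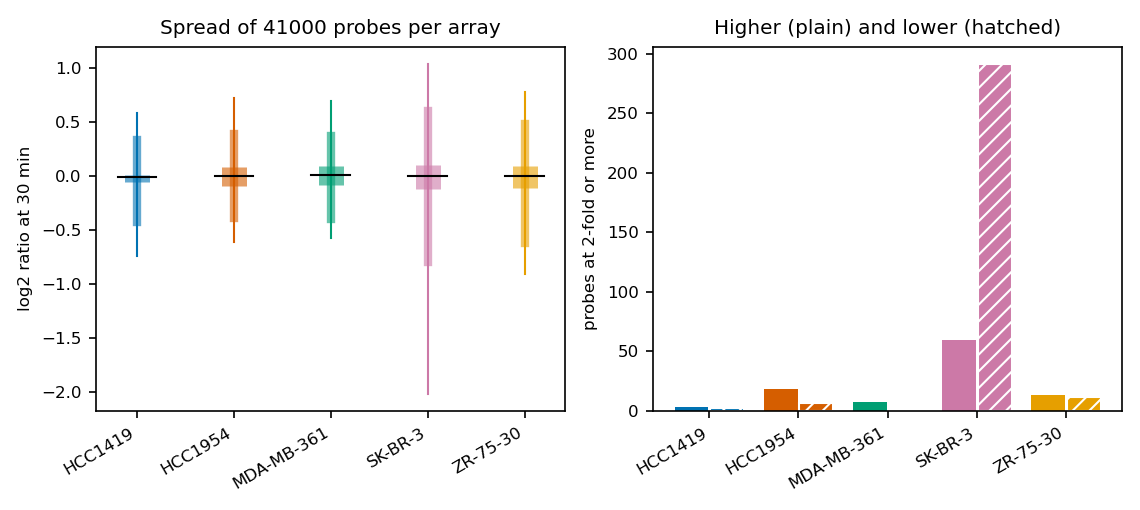
Left, log2 ratio of BMP4 over vehicle on each 30 min array (thin line, 0.1st to 99.9th percentile; thicker line, 1st to 99th; box, quartiles; black bar, median). Right, number of probes at a 2-fold or larger ratio, higher (plain bars) and lower (hatched bars) with BMP4; SK-BR-3 had 350 such probes and each other line 24 or fewer.

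The first question was which probes differed from a ratio of 0 when the 5 lines served as replicates. Few did in the test as run here, none of them by 2-fold, and neither the ID genes nor other known BMP4 targets were among them. With limma, 33 of 41000 probes (0.0805%) passed an adjusted p of 0.05, of which 24 (0.0585%) were higher and 9 (0.022%) were lower with BMP4. Their mean ratios lay between 0.228 and 0.952 in absolute size, with a median of 0.448, whereas the median over all probes was 0.0513. Without adjustment, 2906 probes were under 0.05. The spread of each probe was estimated over all 30 arrays, so a probe whose lines differ at later times is harder to call at 30 min. In all 33 the lines with a value shared 1 sign. The count was 18 without HCC1419, 10 without HCC1954, 29 without MDA-MB-361 (15 of them among the 33), 12 without SK-BR-3 and 12 without ZR-75-30, and with the line as a fixed block it was 91 (51 higher and 40 lower, including all 33). When only the 5 arrays of 30 min were fitted, limma called 0 probes, with 4376 under an unadjusted p of 0.05. When loess was replaced by 1 factor per array it was also 0, with 876 under an unadjusted p of 0.05. The scanner software's own log ratios gave 57 (49 higher and 8 lower) and the deposited series matrix 35 (32 higher and 3 lower). With a weight for each array the count was 1378, of which 343 were higher and 1035 lower, including 32 of the 33, and ID1 (adjusted p = 0.0432), JUNB (0.00299) and EGR1 (0.0449) were then called by limma.

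Among the 33 probes, 24 carried a gene symbol and 9 carried only an accession or a probe name. The strongest by p was a probe for the transcript cluster THC2521437 (chr1:28696787-28696846, minus strand, build hg18), with ratios of 0.49 in ZR-75-30, 0.51 in HCC1419, 0.84 in SK-BR-3, 0.52 in MDA-MB-361 and 0.40 in HCC1954. Their mean was 0.55 ± 0.17 (SD), with a limma adjusted p of 4.02e-05. All 5 lines lay well above 0, and SK-BR-3 stood above the rest.

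The probes next in order were BC045677 on chromosome 13 (mean 0.59), THC2565608 on chromosome 10 (mean 0.50) and LENG8, a gene of the leukocyte receptor cluster region (chr19:59664734-59664793, plus strand, hg18). The LENG8 probe had 0.66 in ZR-75-30, 0.55 in HCC1419, 0.54 in SK-BR-3, 1.01 in MDA-MB-361 and 0.44 in HCC1954. Its mean of 0.64 ± 0.22 (SD) corresponds to 1.56-fold, with a limma adjusted p of 0.00021. The ratio was high in every line and highest in MDA-MB-361.

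The probe with the largest mean was GIPR, the receptor of the gut hormone glucose-dependent insulinotropic polypeptide (chr19:50873300-50876736, plus strand, hg18). Its ratio was 1.69 in ZR-75-30, 0.56 in HCC1419, 1.33 in SK-BR-3, 0.66 in MDA-MB-361 and 0.51 in HCC1954. The mean was 0.95, or 1.93-fold, with an SE of 0.18 and an adjusted p of 0.0309 in limma. SK-BR-3 and ZR-75-30 lay above the remaining 3 lines.

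Further probes higher with BMP4 named genes of unlike function. They included SARDH, a mitochondrial sarcosine dehydrogenase (mean 0.56), SLC6A19, a neutral amino acid transporter (0.58), NISCH, an imidazoline receptor candidate (0.54), and CAND1, a regulator of cullin ubiquitin ligases (0.44). The guanine nucleotide exchange factors ARHGEF15 (0.53) and ARHGEF10L (0.45, with no value in SK-BR-3) were also among them, as were TCF15, a basic helix-loop-helix factor (0.48), HIF3A, a hypoxia-inducible factor subunit (0.31), DPYSL3 (0.43), HRASLS5 (0.53) and PALM2-AKAP2 (0.52). The last was the brightest of the 33, at the 99.9th percentile of mean intensity.

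JUND, a subunit of the AP-1 transcription factor (chr19:18251756-18251814, minus strand, hg18), was the only called probe whose gene belongs to the FOS and JUN family. It had 0.34 in ZR-75-30, 0.54 in HCC1419, 0.81 in SK-BR-3, 0.33 in MDA-MB-361 and 0.38 in HCC1954, with a mean of 0.48 and an adjusted p of 0.00751 in limma. The ratio was above 0 in all 5 lines and was highest in SK-BR-3.

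The 9 lower probes had smaller ratios, from -0.41 to -0.23. They were C16orf14 (now MCRIP2, mean -0.41), PRR7 (-0.36), UNQ501 (now TMEM205, -0.36), ADORA1, the adenosine A1 receptor (-0.32), PYCRL (now PYCR3, a proline synthesis enzyme, -0.28), LZTS2 (-0.28), B4GALT2, a galactosyltransferase (-0.25), CYB561D2 (-0.23) and NSMCE1, a subunit of the SMC5/6 complex (-0.23). PYCRL and the higher LOC728131 were the called probes nearest to the threshold, with limma adjusted p of 0.0449 and 0.0488, and MGC11102 (0.0516) and SSH3 (0.052) lay just outside it.

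**Figure D2:**
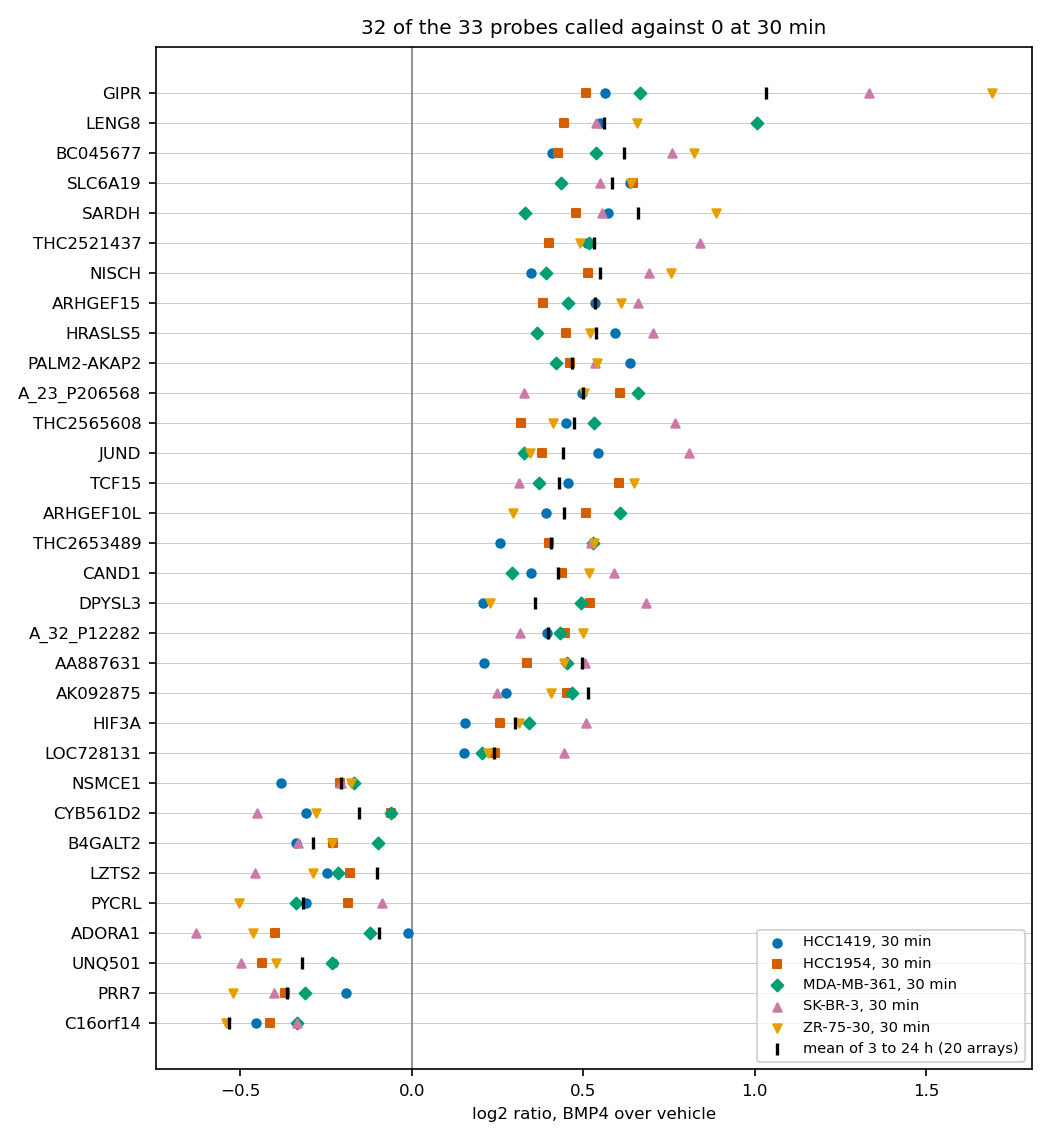
Log2 ratio of BMP4 over vehicle at 30 min for 32 of the 33 probes called against 0 (coloured symbols, 1 per line) and their mean over the 20 arrays of 3 to 24 h (black bar). The black bar falls within or near the 30 min values for nearly all probes, as for LENG8 (0.64 at 30 min).

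The second question was whether these 33 ratios belonged to the earliest time point or were the same throughout. For nearly all of them the mean of 3 to 24 h was not found to differ from 30 min. A probe was said to grow or fade where the mean of 3, 6, 12 and 24 h differed from 30 min at an unadjusted p under 0.05 in limma with the line as a block, and to have the same ratio where it did neither and all 6 time-point means shared a sign. By this description 30 probes (23 higher and 7 lower) had the same ratio, 1 grew and 2 faded. Of all 41000 probes, 2046 were under that unadjusted p. The 1 h arrays entered the description only by their sign. Among the 30, HIF3A went from 0.31 to 0.55 at 1 h and DPYSL3 from 0.43 to 0.68, neither called as different (adjusted p = 0.767 in limma). No array had its dyes swapped, and a difference between the channels and a response that is equally large at all times cannot be told apart for these 30 probes.

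The later arrays did not enter the 30 min means, but they did enter the spread of the test that chose the 33. That choice favours probes whose lines lay close together later, so the counts below are a description. For 25 of the 33 probes (75.8%) every later array with a value lay on the side of the 30 min mean, against 175 of all 41000 probes (0.427%). Of all probes, limma called 0.973% on the 1 h arrays and 0.349%, 0.176%, 0.463% and 1.58% after 3, 6, 12 and 24 h. Of the 33 probes, 19 were called at all 6 time points, 29 were called at 3 or more of the 5 later ones, and 2 (ADORA1 and CYB561D2) at none. The median absolute change from 30 min to the mean of 3 to 24 h was 0.0344 over the 33 probes and 0.0472 over all probes.

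The time-point means of LENG8 stayed between 0.48 and 0.71, those of SARDH between 0.56 and 0.80, those of JUND between 0.35 and 0.50 and those of GIPR between 0.95 and 1.13. GIPR varied more between arrays, with a low of 0.31 in HCC1954 and a high of 2.24 in ZR-75-30, both at 12 h. In MDA-MB-361, by contrast, its 6 values lay between 0.54 and 0.95.

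The probe that grew was AK092875, a cDNA clone on chromosome 17 (chr17:34114176-34114235, plus strand, hg18). It had 0.41 in ZR-75-30, 0.28 in HCC1419, 0.25 in SK-BR-3, 0.47 in MDA-MB-361 and 0.45 in HCC1954, and its mean over 3 to 24 h was 0.14 (SE 0.0614) above that of 30 min. The largest time-point mean was 0.67, at 3 h. Adjusted over all probes that later difference was not called (adjusted p = 0.962 in limma).

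Both probes that faded were lower with BMP4. LZTS2, which codes for a leucine zipper protein (chromosome 10), had -0.29 in ZR-75-30, -0.25 in HCC1419, -0.46 in SK-BR-3, -0.21 in MDA-MB-361 and -0.18 in HCC1954. Its mean was -0.28 at 30 min and -0.28 at 1 h and lay between -0.13 and -0.07 from 3 h on, a change of 0.18 (adjusted p = 0.518 in limma). ADORA1 had -0.46 in ZR-75-30, -0.01 in HCC1419, -0.63 in SK-BR-3, -0.12 in MDA-MB-361 and -0.40 in HCC1954, so it was close to 0 in 1 line. It was well above background in both channels on only 3 of the 5 arrays, and its change of 0.23 to the later mean was not called either (adjusted p = 0.528 in limma).

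Other probes with the same gene name gave a further reading of the 33. For 18 of the 24 named genes the array held 29 other probes, and none of the 29 was called at 30 min. Turned to the sign of the called probe, their median ratio was -0.0123, whereas that of the called probes of these 18 genes was 0.464. Of the 29, 18 were well above background in both channels of each of the 5 arrays, and their median was 0.0687, with 11 of them on the side of the called probe.

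The single genes differed in this. The other GIPR probe had a mean of -0.08, the 4 other CAND1 probes lay between -0.01 and 0.11, the other ARHGEF10L probe was at -0.002, and the other NISCH probes were at -0.14 and -0.08. LENG8 had probes at 0.21 and -0.26, on either side of 0. HRASLS5, B4GALT2 and LZTS2 had another probe nearer to the called one, at 0.35, -0.22 and -0.22, while a further B4GALT2 probe was at -0.06. PRR7 had other probes with means of -0.70 and -0.13, both on the side of the called one, but not in every line. The -0.70 probe ranged from -2.36 (SK-BR-3) to 0.30 (MDA-MB-361), with HCC1954 at 0.02. The -0.13 probe was above 0 in MDA-MB-361 (0.13), as were the B4GALT2 and LZTS2 probes at -0.22 (0.23 and 0.19). Which part of a transcript each probe reads was not annotated here.

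**Figure D3:**
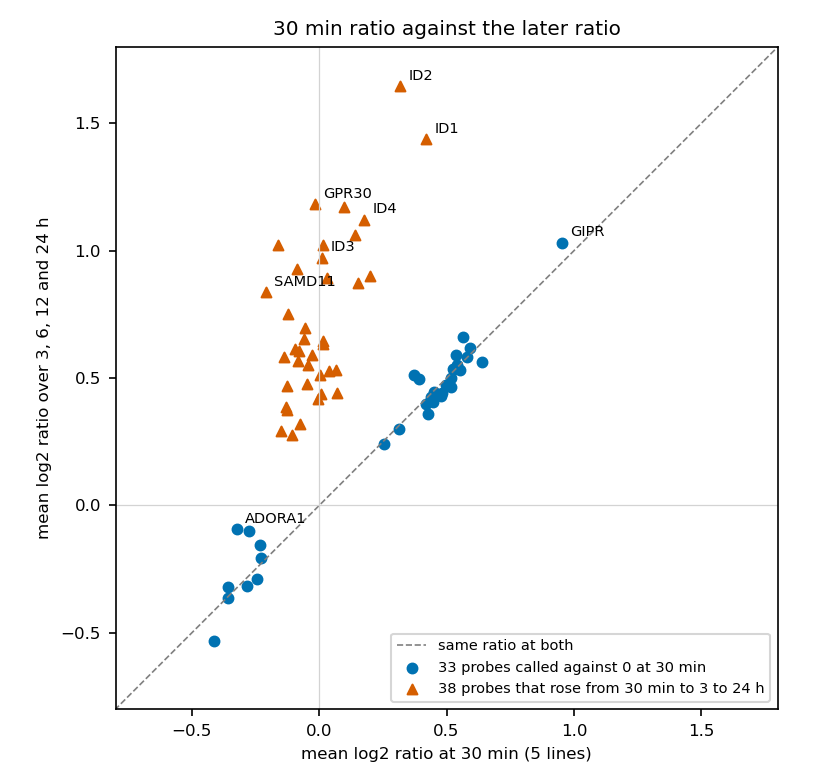
Mean log2 ratio at 30 min (horizontal) against the mean over 3, 6, 12 and 24 h (vertical) for the 33 probes called at 30 min (circles) and the 38 probes that rose from 30 min to 3 to 24 h (triangles). The circles lie along the dashed line of equal ratios and the triangles above it, most of them near 0 at 30 min.

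The third question was where the known targets of BMP4 stood at 30 min. As a list they had hardly moved, and ID1 was the member furthest from 0. Of 18 BMP target genes, each read from its brightest probe, none was called at 30 min (0.0805% of all probes were) and 1 had an unadjusted p under 0.05. Their ratios lay between -0.12 and 0.42 with a median of 0.04, beside a median of -0.005 over all probes. At 1 h the median of the same genes was 0.28 and 5 were called higher, where 0.973% of all probes were called (251 higher and 148 lower), and over 3 to 24 h it was 0.58.

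ID1 (chr20:29657819-29657878, plus strand, hg18; 10 spots per array) had 0.56 in ZR-75-30, 0.51 in HCC1419, 0.35 in SK-BR-3, 0.29 in MDA-MB-361 and 0.39 in HCC1954. The mean was 0.42 ± 0.11 (SD), or 1.34-fold, and all 5 lines were above 0, as was true of 2 of the 18 genes and of 5.18% of all probes. Against 0 it was not called (limma, adjusted p = 0.601), with an SE of 0.162 that includes its spread at later times. It was not called either when only the arrays of 30 min were fitted. At 1 h ID1 stood at 1.06 in ZR-75-30, 1.81 in HCC1419, 0.65 in SK-BR-3, 1.85 in MDA-MB-361 and 1.30 in HCC1954, above the 30 min value in each line. The difference from 30 min was 0.91 (SE 0.167) at 1 h, with a limma adjusted p of 0.0763, and 1.02 (SE 0.132) to the mean of 3 to 24 h, which was called (limma, adjusted p = 0.000507).

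ID2 was read by a pair of probes on chromosome 2. The brighter had 0.74 in ZR-75-30, 0.09 in HCC1419, 0.38 in SK-BR-3, 0.22 in MDA-MB-361 and 0.16 in HCC1954, with a mean of 0.32 ± 0.26 (SD). The values were graded across the lines, and ZR-75-30 stood above the rest. The other ID2 probe had a mean of 0.10, negative in HCC1419 and SK-BR-3. Both rose later, by 1.33 and 1.07 to the mean of 3 to 24 h.

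ID3 (chr1:23758253-23758312, minus strand, hg18) was at -0.05 in ZR-75-30, 0.05 in HCC1419, -0.17 in SK-BR-3, 0.21 in MDA-MB-361 and 0.01 in HCC1954, so that the lines lay on either side of 0 and the mean was 0.01 ± 0.14 (SD). At 1 h its mean was 0.84, and every line had risen, from 0.50 in SK-BR-3 to 1.08 in HCC1419. ID4 had a mean of 0.18 at 30 min, with SK-BR-3 at 0.64 and MDA-MB-361 at -0.16. Transcript probes close to the ID1 probe (CN479126) and the ID3 probe (AW327568), but on the opposite strand, had means of -0.16 and -0.09 at 30 min. At 1 h these were 0.59 and 0.87.

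The inhibitory SMADs and the homeobox targets were not called at 30 min. SMAD7 was at 0.03 in ZR-75-30, -0.03 in HCC1419, 0.36 in SK-BR-3, -0.09 in MDA-MB-361 and 0.11 in HCC1954 (mean 0.08), before a mean of 0.65 at 1 h. SMAD6 was at -0.06 at 30 min and 0.09 at 1 h, and reached 0.70 over 3 to 24 h. HEY1, a Notch and BMP target, had a mean of 0.15 with values from -0.22 to 0.55, and 1.04 at 1 h. DLX2 (0.12), DLX3 (-0.08), MSX1 (-0.06), MSX2 (0.13), GATA2 (-0.10), BAMBI (0.10) and ATOH8 (-0.05) were likewise near 0, and RUNX2, SMAD9, TBX2 and TBX3 lay between -0.12 and 0.07. BAMBI, a decoy receptor, was at 0.74 in HCC1419 and between -0.29 and 0.04 in the other lines.

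**Figure D4:**
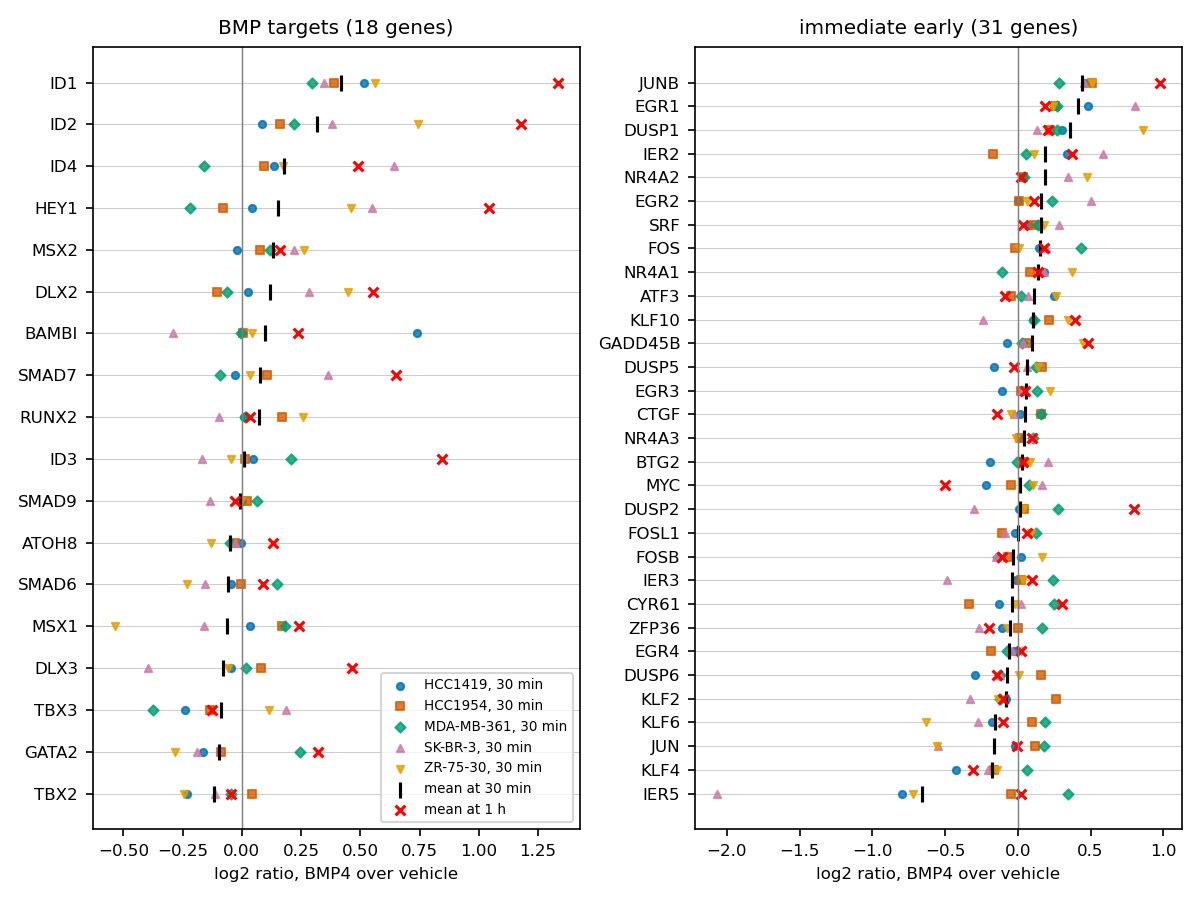
Log2 ratio of BMP4 over vehicle for the BMP target genes (left) and the immediate early genes (right): coloured symbols, the 5 lines at 30 min; black bar, their mean; red cross, mean at 1 h. ID1, JUNB and EGR1 have all 5 lines above 0 at 30 min, while most crosses of the ID genes lie far to the right of the 30 min symbols.

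Immediate early genes were the other group in which a response at 30 min was looked for. Of 31 genes none was called against 0, and 3 were higher at an unadjusted p under 0.05 (9.68%, beside 3.04% of all probes), namely JUNB, EGR1 and DUSP1. The median of the list was 0.04 at 30 min and 0.04 at 1 h. In 6 of the 31 all 5 lines lay above 0 (19.4%, beside 5.18% of all probes) and in none did all lie below.

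JUNB, a subunit of AP-1, had the highest mean of the list and the narrowest spread of these 3. Its first probe (chr19:12765047-12765106, plus strand, hg18) was at 0.51 in ZR-75-30, 0.46 in HCC1419, 0.45 in SK-BR-3, 0.28 in MDA-MB-361 and 0.51 in HCC1954, with a mean of 0.44 ± 0.09 (SD), or 1.36-fold. The test against 0 gave an adjusted p of 0.285 in limma, so JUNB was not called. Its mean was as large as that of many called probes, but its SE (0.116) includes the spread at later times. At 1 h the mean was 0.98 and JUNB was called, and it stayed between 0.82 and 1.12 afterwards. The difference of 1 h from 30 min was 0.53 (SE 0.140; adjusted p = 0.767 in limma), and that of the mean of 3 to 24 h was also 0.53 (SE 0.110; adjusted p = 0.0754 in limma), so neither was called. By line the 1 h difference was 1.06 in HCC1419 and 1.02 in MDA-MB-361 but 0.01 in SK-BR-3. A second JUNB probe, with lower coordinates (chr19:12763998-12764057, hg18), had a mean of -0.01 at 30 min, with values from -0.33 to 0.36, and was called at no time.

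EGR1, a zinc finger transcription factor, had its highest mean over the lines at 30 min of all 6 times. It stood at 0.24 in ZR-75-30, 0.48 in HCC1419, 0.80 in SK-BR-3, 0.27 in MDA-MB-361 and 0.25 in HCC1954, with a mean of 0.41 ± 0.24 (SD; limma adjusted p = 0.654). All 5 lines were above 0. Its mean was 0.19 at 1 h and 0.15, 0.34, 0.12 and 0.04 after 3, 6, 12 and 24 h, and the mean of 3 to 24 h, lower by 0.25, was not called as different (adjusted p = 0.971 in limma). In SK-BR-3 the ratio went from 0.80 at 30 min to -0.32 at 1 h, whereas in MDA-MB-361 it went from 0.27 to 0.91. By line, only SK-BR-3 and HCC1954 were highest at 30 min. HCC1419 reached 0.59 and ZR-75-30 0.81 at 12 h, and MDA-MB-361 1.01 at 6 h.

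DUSP1, a phosphatase that switches off MAP kinases, had 0.86 in ZR-75-30, 0.30 in HCC1419, 0.13 in SK-BR-3, 0.27 in MDA-MB-361 and 0.22 in HCC1954 (mean 0.36), and 0.21 at 1 h and 0.33 over 3 to 24 h. It was above 0 in all lines, and ZR-75-30 was the highest. FOS stood at 0.15, IER2 at 0.18, SRF, the serum response factor itself, at 0.16 with all 5 lines above 0, FOSB at -0.03, JUN at -0.16 and MYC at 0.02. At 1 h MYC and DUSP2 had means of -0.50 and 0.80, and neither was called. The other MYC probes were at 0.13 and -0.01 at 1 h. KLF4 (-0.17), KLF6 (-0.16), KLF2 (-0.08) and JUN had the lowest means beside IER5. The IER5 mean of -0.66 came from -2.07 in SK-BR-3, -0.80 in HCC1419 and -0.72 in ZR-75-30, while MDA-MB-361 had 0.34 and HCC1954 had -0.05, and the other IER5 probe had a mean of -0.02. Probes of other genes had a like profile over the lines, namely ZNF467, A_32_P61074, A_32_P112100 and a PRR7 probe that was not called. ZNF467, for example, was at -2.16 in SK-BR-3, -0.96 in HCC1419, -0.85 in ZR-75-30, 0.25 in MDA-MB-361 and 0.16 in HCC1954.

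The regions upstream of the start sites of ID1, JUNB and EGR1, which were among the genes with all 5 lines above 0, and of ID3, which was at 0, are given for comparison. They were taken from RefSeq (GRCh38.p14), each being the 250 bases before the start in the direction of the gene. Capitals mark GTCT, the core of the sequence that SMAD proteins bind, GGCGCC, a core of BMP response elements, and the CArG box, to which serum response factor binds, all searched on both strands.
ID1 (chr20:31605039-31605288, plus strand): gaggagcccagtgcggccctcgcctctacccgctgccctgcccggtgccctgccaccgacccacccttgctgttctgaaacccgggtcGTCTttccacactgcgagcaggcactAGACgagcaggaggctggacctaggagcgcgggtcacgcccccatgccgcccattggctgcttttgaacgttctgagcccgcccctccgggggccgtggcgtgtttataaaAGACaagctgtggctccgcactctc
ID3 (chr1:23559502-23559751, minus strand): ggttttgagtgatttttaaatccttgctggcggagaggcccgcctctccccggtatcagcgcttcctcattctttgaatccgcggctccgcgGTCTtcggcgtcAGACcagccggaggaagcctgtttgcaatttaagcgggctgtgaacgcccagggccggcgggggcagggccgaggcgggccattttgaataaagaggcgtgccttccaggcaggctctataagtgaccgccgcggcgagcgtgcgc
JUNB (chr19:12791236-12791485, plus strand): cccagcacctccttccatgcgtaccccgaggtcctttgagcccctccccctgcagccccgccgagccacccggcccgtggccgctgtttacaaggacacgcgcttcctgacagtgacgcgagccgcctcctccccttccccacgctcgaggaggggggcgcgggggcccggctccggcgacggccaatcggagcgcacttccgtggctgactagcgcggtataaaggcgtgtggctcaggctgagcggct
EGR1 (chr5:138465229-138465478, plus strand): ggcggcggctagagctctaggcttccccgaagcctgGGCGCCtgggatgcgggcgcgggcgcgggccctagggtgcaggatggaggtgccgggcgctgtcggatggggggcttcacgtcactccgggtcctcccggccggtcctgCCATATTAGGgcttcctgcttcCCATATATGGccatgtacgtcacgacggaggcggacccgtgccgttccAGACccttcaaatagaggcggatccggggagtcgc
ID1 held GTCT at 3 places, ID3 at 2 and EGR1 at 1, and JUNB held none of the 3 motifs. EGR1 also held 1 GGCGCC and 2 CArG boxes. Of 35116 RefSeq windows of this length, 77.5% held GTCT, 16.4% GGCGCC and 1.16% a CArG box. A match is a stretch of letters and not a binding site, and regulatory elements outside these windows were not examined.

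**Figure D5:**
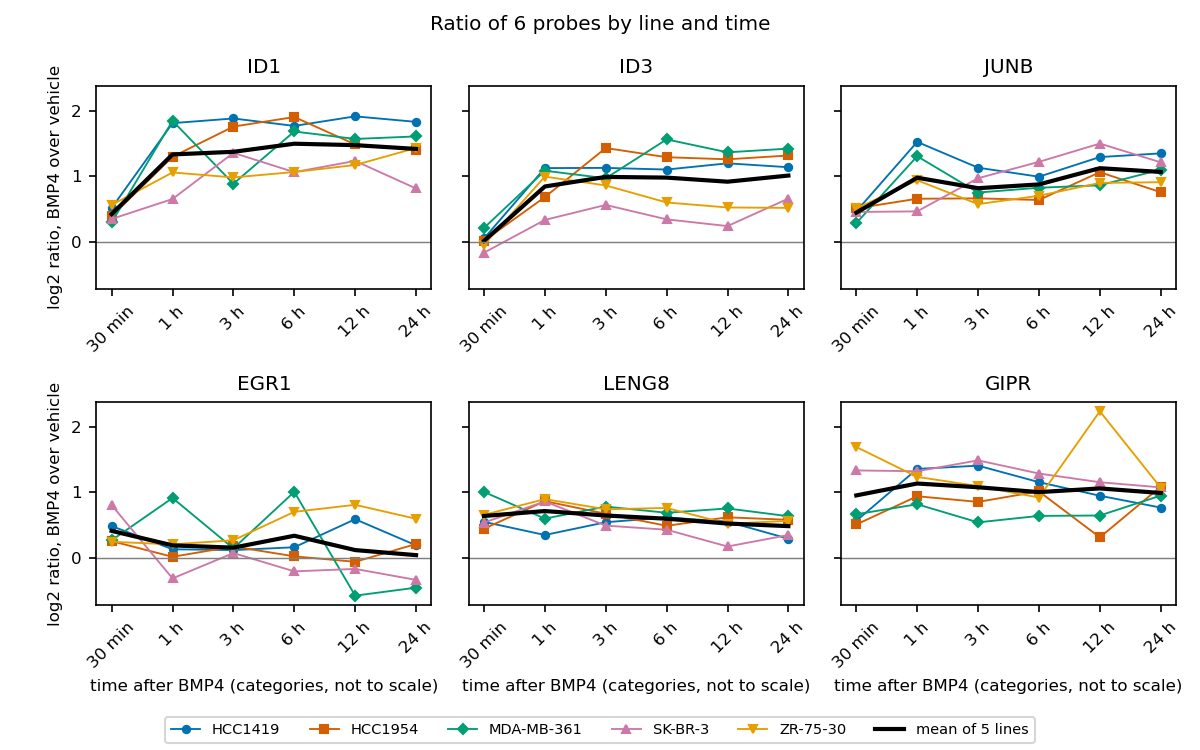
Log2 ratio of BMP4 over vehicle of 6 probes at the 6 time points (categories, not to scale), thin lines for the cell lines and a thick black line for their mean. ID1 and ID3 were higher at 1 h than at 30 min in each line, the mean of JUNB was 0.44 at 30 min and 0.98 at 1 h, that of EGR1 was highest at 30 min (0.41), and the means of LENG8 and GIPR were of like size at all 6 times.

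Differences from 30 min do not contain a dye effect that is equal on all arrays. They can still contain differences between slides and scan days. In SK-BR-3, for example, the arrays of 3 to 24 h were on another slide and scanned on another day than the 30 min array. Between 30 min and 1 h, limma with the line as a block called 1 of 41000 probes (0.00244%), a probe for OVOL1, a zinc finger repressor of epithelial cells, with 2524 under an unadjusted p of 0.05. The probe (chr11:65320058-65320117, plus strand, hg18) was at 0.07 in ZR-75-30, -0.01 in HCC1419, -0.14 in SK-BR-3, 0.13 in MDA-MB-361 and -0.13 in HCC1954 at 30 min. It rose by 0.45 to 0.80 in every line, on average by 0.58 (SE 0.0879; adjusted p = 0.0378), and was back between 0.07 and 0.20 from 3 h on. A second, brighter OVOL1 probe went from 0.07 to 0.98 and kept 0.53 later.

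Among the 24627 probes that were well above background in at least 1 channel on at least 4 of the 5 arrays, the same test called 8 probes, all higher at 1 h. They were ID3 (0.83), BCOR, a transcriptional corepressor (1.07), BF366211 (0.65), IER5L (0.72), ID1 (0.91), the brighter OVOL1 probe (0.91), SOCS3, an inhibitor of cytokine signalling (0.53), and the dimmer ID2 probe (0.74). At 30 min these 8 probes had means from -0.24 (IER5L) to 0.42 (ID1). The OVOL1 probe named first was left out here as too dim.

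From 30 min to the mean of 3 to 24 h, 38 probes (0.0927%) rose and 0 fell, with 2046 under an unadjusted p of 0.05. The count was 16 without HCC1419, 32 without HCC1954, 6 without MDA-MB-361, 29 without SK-BR-3 and 16 without ZR-75-30. Since the 30 min value enters this difference, low 30 min values favour a call, and none of the 38 was called at 30 min. Their median was -0.0224 at 30 min, 0.288 at 1 h and 0.623 over 3 to 24 h. ID1 alone was under an unadjusted p of 0.05 at 30 min, and in 3 of the 38 (ID1, the brighter ID2 probe and LIN7B) all 5 lines were above 0.

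The 10 largest rises were those of the ID2 probes (1.33 and 1.07), GPR30 (now GPER1, a membrane oestrogen receptor, 1.20), CN479126 (1.18), SAMD11 (1.05), ID1 (1.02), AW327568 (1.01), DUSP2, a MAP kinase phosphatase (1.01), ID3 (0.96) and ID4 (0.95). At 30 min GPR30 stood at -0.02, SAMD11 at -0.21 and DUSP2 at 0.01. The BMP target list held 7 genes with a called rise, namely ID1 to ID4, SMAD6, DLX3 and GATA2, and the immediate early list 1, DUSP2.

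Lists of other pathways stayed near 0 at 30 min, and none of their genes was called. The medians were 0.03 for 12 BMP receptors and SMADs, 0.03 for 9 BMP antagonists, 0.04 for 11 targets of the TGF-beta type SMAD2 and SMAD3, 0.04 for 7 heat shock genes, 0.06 for 8 hypoxia genes, 0.02 for 9 NF-kB targets and -0.005 for 15 proliferation genes. Among receptors, BMPR1A was at 0.08, BMPR2 at -0.06, ACVR1 at 0.10 and ACVR2A at 0.11, and SMAD1, SMAD4 and SMAD5 were at 0.03, 0.14 and -0.08. The antagonists NOG, CHRD and GREM1 stood at 0.07, 0.14 and -0.01.

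HSPA1A, an inducible heat shock chaperone, had an unadjusted p under 0.05 with 0.04 in ZR-75-30, 0.64 in HCC1419, 0.30 in SK-BR-3, 0.23 in MDA-MB-361 and 0.46 in HCC1954 (mean 0.33; adjusted p = 0.538 in limma). Its other probes had means of -0.23 and -0.34, so the direction for the gene depended on the probe. VEGFA, an angiogenic growth factor of the hypoxia list, was above 0 in all 5 lines with a mean of 0.14, and 0.15 at 1 h. NFKBIA, the inhibitor of NF-kB, was at 0.24 at 30 min, with MDA-MB-361 at -0.18 and ZR-75-30 at 0.64, and was called at 1 h with 0.59. In the proliferation list 3 genes lay below 0 in all 5 lines (20% of the list, beside 5.5% of all probes), namely the replicative helicase subunits MCM2 (from -0.31 to -0.14) and MCM7 (from -0.48 to -0.03) and the cell cycle kinase CDC2 (now CDK1, from -0.32 to -0.02).

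The last question was what each line showed on its own. At least a 2-fold difference was found for 350 probes in SK-BR-3 (59 higher), 24 in ZR-75-30 (13 higher), 24 in HCC1954 (18 higher), 7 in MDA-MB-361 (7 higher) and 5 in HCC1419 (3 higher), a mean of 82 ± 150.1 (SD). Without SK-BR-3 the mean was 15, and with the scanner software's own log ratios the counts lay between 387 and 901 per line. Of 392 probes at 2-fold in any line, 16 were so in at least 2 lines, all in the same direction, and 2 in at least 3. Many of the 16 shared a profile over the lines, so they are not 16 separate agreements. FLJ35379, LY6G5C, THC2560073, THC2693741, KIAA1922 and A_24_P928031 were high in HCC1954, SK-BR-3 and ZR-75-30 and near or below 0 in HCC1419 and MDA-MB-361. NEUROG3, A_32_P112100, A_32_P140312, BC028232 and THC2740013 were low in HCC1419, SK-BR-3 and ZR-75-30 and above 0 in the other lines. LY6G5C, a lymphocyte antigen family gene, was at 2-fold in 3 lines, with 1.95 in HCC1954, 1.07 in ZR-75-30 and 1.04 in SK-BR-3 against -0.58 in MDA-MB-361 and 0.01 in HCC1419. With single arrays per line these values have no replicate check.

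In HCC1419 the highest probes well above background were RPS10 (1.23) and RPS2 (0.94), which code for proteins of the small ribosomal subunit, and TUBA1C, an alpha tubulin (0.92). In the same line RPS10 stayed between 0.52 and 1.01 at all later times. The lowest were A_32_P140312 (-1.02), A_32_P112100 (-1.001) and the zinc finger gene ZNF467 (-0.96), which were lower still at 3 h (-1.93 to -2.06).

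HCC1954 had the highest single ratio, C10orf39 at 2.90, followed by FLJ35379 (2.20) and LGI4 (1.96). These 3 were between -0.59 and 0.73 at 1 to 12 h in that line and returned to 2.52, 2.46 and 1.997 at 24 h. At 30 min they were also high in SK-BR-3 (0.98, 0.80 and 0.84) and ZR-75-30 (0.92, 1.25 and 0.95), and near or below 0 in HCC1419 and MDA-MB-361. The lowest in HCC1954 were FGFBP2 (-1.60), CCDC93 (-1.39) and ANP32D (-1.29). FGFBP2 and CCDC93 lay between -0.24 and 0.17 on all later arrays of that line, and FGFBP2 was well above background on this 1 array of the 5.

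In MDA-MB-361 the highest were GGTA1 (1.54), NDUFA5, a subunit of respiratory complex I (1.22), and LZTR2 (1.12). NDUFA5 stayed between 0.41 and 0.70 later. The lowest were 3 probes of HNRPA3 (now HNRNPA3), an RNA-binding protein gene (-0.91, -0.87 and -0.80), which were lower in HCC1954 too (-0.65 to -0.56) and higher in HCC1419 and SK-BR-3 (0.41 to 0.70).

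In SK-BR-3 most of the 350 probes were lower. ENST00000382691 (-2.54), PRR7 (-2.36) and A_32_P61074 (-2.28) were the lowest and C8orf39 (2.14), THC2496494 (1.72) and CB305813 (1.71) the highest. The SK-BR-3 PRR7 probe is not the called one. At 1 h its ratio was 1.13 and by 12 h it was -1.86, and A_32_P61074 followed the same course in that line (1.20 and -2.01). ENST00000382691, C8orf39 and THC2496494 were between -0.24 and 0.13 at every later time in SK-BR-3, and they were well above background on 2 or fewer of the 5 arrays.

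In ZR-75-30 GIPR (1.69) and AK124426 (1.5045) were at the upper end, and the lowest were AL359650 (-1.19), GPR78 (-1.17) and THC2740013 (-1.12). AL359650 and GPR78 were at 0.94 and 1.16 at 1 h, on the other side of 0.

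Across the 20421 probes with a value on every array of the series and both channels well above background on each of the 5, HCC1419, SK-BR-3 and ZR-75-30 had similar profiles (Pearson r of 0.547, 0.553 and 0.574 between them). HCC1954 correlated weakly with these 3 (0.140 to 0.244). MDA-MB-361 was near 0 against HCC1954 (0.00102) and negative against the other 3 (-0.286 to -0.220). The probes of an array share its labelling and hybridisation, so these values are a description of the arrays.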

How the data were processed

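RNA pools of BMP4-treated (Cy5) and vehicle-treated (Cy3) cells were hybridised to Agilent two-colour arrays, with no dye swaps. Per the file headers the authors' scanner intensity values came from Feature Extraction 9.5.1.1 (probe coordinates hg18), and the deposited files also held a log10 ratio per spot. The series matrix deposited by the authors gave normalized log2 values of 40997 probes, each array with a median of 0 (how it was scaled is not given in the sources used here), and served as an alternative.

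Mean and background intensities were corrected by normexp (offset 50) and normalized by loess within each array, control spots (1639 of 45015) having weight 0. Outlier-flagged spots were set missing and spots of a probe averaged, giving 41000 probes. In limma 3.58.1 (R 4.3.3), lmFit and eBayes were fitted to all 30 arrays, with a coefficient per time point and lines as replicates. Time points were compared with the line as a block. Benjamini-Hochberg adjustment ran over all probes, with an adjusted p under 0.05 as the call. No array counts molecules, so precision rests on the number of arrays. Lines are separate cultures but are unlike one another. In the test against 0 the p-values rest on the spread between lines pooled over all time points, not that of 30 min alone. Arrays of the same line at different times were treated there as independent. Where time points were compared, the line block took out constant differences between lines, and those p-values rest on the spread that remained. Same-numbered arrays are the same cell line: the 30 min array and a later array of its line correlated on average at r = 0.0901, those of different lines at r = -0.0235. The first average rested on MDA-MB-361 (r = 0.559), the other 4 lines lying between -0.0813 and 0.0486. Slide and scan day differed for all 5 arrays of 30 min, so neither could be tested within 30 min, and each entered the full fit as a random block. The members and gene lists were chosen with earlier results of these data known. The text names the called probes with a symbol, except 1 that is not reported here, members of the lists (brightest probe per gene, other probes where they are given), the 10 largest later rises and the 3 highest and 3 lowest bright probes per line, 1 of which is left out. LY6G5C and the probes listed for a shared profile over the lines were named after their values were seen. The code was tested on simulated data.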

Additional observations from a re-analysis of the deposited data

Results flagged for a closer look

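Among 86 groups of 5 lines, 7 held a line whose gap to the nearest of the others exceeded the 95% critical value of Dixon's test, where chance alone gives about 1 in 20. For NSMCE1, HCC1419 was at -0.3815 and the other lines between -0.21 and -0.17. For THC2521437, SK-BR-3 was at 0.8413 and the others between 0.40 and 0.52. For JUNB, MDA-MB-361 was at 0.2833 and the others between 0.45 and 0.51. For DUSP1, ZR-75-30 was at 0.8579 and the others between 0.13 and 0.30. For DLX3, SK-BR-3 was at -0.3959 and the others between -0.06 and 0.08. For GADD45B, ZR-75-30 was at 0.4487 and the others between -0.07 and 0.07. The number of probes at 2-fold was 350 in SK-BR-3 and 5 to 24 in the other lines.

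The ratio differed between time points, by limma's test of the difference, for OVOL1 from 30 min to 1 h (0.5806). From 30 min to the mean of 3 to 24 h the largest called differences were those of the ID2 probes (1.327 and 1.074), GPR30 (1.201), CN479126 (1.184), SAMD11 (1.049), ID1 (1.019), AW327568 (1.013), DUSP2 (1.01), ID3 (0.9622) and ID4 (0.945). All were higher at the later times.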

How the results depend on the processing

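For the 33 probes called at 30 min, the count was 57 with the software's log ratios, 0 with 1 factor per array, 1378 with array weights (343 higher, the 30 min array of HCC1419 having the largest weight), 91 with the line as a block, 0 with only the 5 arrays of 30 min, and 10 to 29 without 1 line. It was 35 with the series matrix, 23 with an offset of 10, 34 with flagged spots kept, 28 without dim probes, 34 with scan day and 38 with slide as a random block, the last chosen after seeing the data. For the 1 probe that changed from 30 min to 1 h, it was 0 with the software's ratios, 1 factor, the series matrix and the offset of 10, 8 without dim probes, 7 with array weights, 3 without the line block and 0 to 2 without 1 line. For the 38 that changed to 3 to 24 h, it was 10 with 1 factor, 58 with array weights, 3 without the line block and 6 to 32 without 1 line, and 38 to 56 with the other settings. The mean number of probes at 2-fold, 82, was 703.4, 711 and 745.4 with the software's ratios, 1 factor and the series matrix, 492.8 at 1.5-fold, and 15 to 101.25 without 1 line. None of the 33 probes changed sign in the settings tried. ID3 at 30 min, 0.01, was -0.064 with 1 factor, -0.039 without MDA-MB-361 and -0.051 with scan day, and moved to 0.056 without SK-BR-3. JUNB, ID1, EGR1 and HSPA1A passed the threshold in 1 of 16 settings each, array weights. The causes were not tested. Ratios of probes near background are limited by their signal.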
